A study of Mus musculus with 10 samples.

Results

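*Neurog3* (*Ngn3*) was followed as 1 of the 27716 genes listed in every count matrix of this single-cell RNA sequencing series of the fetal mouse pancreas. The gene was chosen by its symbol, and the cells that carried it were those with at least 1 *Neurog3* UMI (unique molecular identifier, the tag that marks 1 captured RNA molecule). By this rule 5066 of 55413 cells were positive, and 4541 of them lay among the 26409 epithelial cells. In the GENCODE annotation of GRCm38 the gene lies on chromosome 10 at positions 62133090 to 62134763 on the plus strand. Its main transcript has 2 exons, and the whole coding sequence of 642 bases, from 62133463 to 62134104, lies in the second.

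The account rests on 8 libraries, taken as independent pools of cells. Live cells of whole Swiss Webster pancreata were captured with 10x version 1 (v1) chemistry in 1 library of E12.5, batches 1 and 2 of E14.5, and 1 library of E17.5, with E12.5 and E17.5 belonging to batch 2. A second set of Swiss Webster pancreata, depleted of CD140a+ mesenchymal cells, was captured with version 2 (v2) chemistry, 1 library for each of the same stages, with E17.5 summed over 2 wells that the labels call technical replicates. The remaining library came from E14.5 *Fev-Cre;ROSA26mTmG* pancreata sorted for GFP+ and TdTomato+ live cells into separate tubes, and the sorted cells were captured together. In this cross a Cre driven by the *Fev* gene switches a cell and its descendants from membrane TdTomato to membrane GFP. No genotype in the labels alters *Neurog3* itself, and the *Fev-Cre* library differed from the others in strain and sort as well as in its transgenes. Each library pooled several pancreata, so embryos cannot be told apart, and p-values measure the spread between these pools. Dissociation was longer at later stages, so stage and dissociation cannot be told apart.

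*Neurog3* encodes a basic helix-loop-helix transcription factor that is switched on briefly in cells of the pancreatic trunk epithelium and starts their conversion into endocrine cells. Notch signaling, through the repressor *Hes1*, keeps it off in neighboring cells. Without it the mouse pancreas forms no islet cells, and its targets include *Neurod1*, *Insm1*, *Pax4* and *Nkx2-2*. Endocrine progenitors (EP) with high *Neurog3* give rise to a later *Fev*-expressing stage and then to alpha, beta and delta cells. Only a part of the epsilon cells was labeled when the authors traced the *Fev* lineage.

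The sequences just upstream of *Neurog3* and of *Neurod2* and *Nhlh1*, the bHLH genes among the 12 that rose most with it, are shown because bHLH factors bind the E-box, CANNTG, and factors of the neurogenin and NeuroD group are known to favor its form CAGATG. Each is the 250 bases before the annotated start (RefSeq, GRCm38.p6), 5′ to 3′ on the strand of the gene, with every match to CANNTG in capitals. They cover chr10:62132840-62133089 (plus strand), chr11:98329646-98329895 (minus strand) and chr1:172057597-172057846 (minus strand).
Neurog3: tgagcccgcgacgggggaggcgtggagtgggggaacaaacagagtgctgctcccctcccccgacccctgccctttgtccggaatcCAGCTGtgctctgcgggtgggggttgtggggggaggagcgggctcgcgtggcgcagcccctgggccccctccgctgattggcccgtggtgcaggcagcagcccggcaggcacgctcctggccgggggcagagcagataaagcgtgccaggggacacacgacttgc
Neurod2: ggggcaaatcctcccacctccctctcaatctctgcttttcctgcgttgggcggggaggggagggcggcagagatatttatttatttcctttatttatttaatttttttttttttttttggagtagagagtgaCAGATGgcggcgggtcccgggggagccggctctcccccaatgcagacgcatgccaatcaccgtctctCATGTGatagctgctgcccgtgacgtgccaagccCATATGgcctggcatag
Nhlh1: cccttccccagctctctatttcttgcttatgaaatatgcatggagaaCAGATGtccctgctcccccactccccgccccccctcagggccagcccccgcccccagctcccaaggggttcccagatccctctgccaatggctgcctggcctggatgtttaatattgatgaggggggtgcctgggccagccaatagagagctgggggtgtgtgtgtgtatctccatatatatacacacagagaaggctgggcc
The *Neurog3* window held 1 CANNTG match, 165 bases before the start, and no CAGATG. *Neurod2* held 3 CANNTG matches, of which the CAGATG lay 118 bases before its start, and *Nhlh1* held a single CAGATG at 203 bases. Both strands were searched for both motifs, and every CAGATG is also a CANNTG. A set of 27 genes was made of *Neurog3* itself, the 12 genes that rose most with it, the 10 most correlated with it and the 8 most like it across classes (some in several groups), and 19 had a window in the table. Of these, 6 held CAGATG (31.6%) against 16.3% of all 27025 genes, and 18 held CANNTG (94.7%) against 69.3%. These are matches of letters, and no binding was measured.

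*Neurog3* was concentrated in 1 epithelial class. Cells were clustered with *Neurog3* left out of the variable genes and of the markers, and clusters were named by marker genes; the classes are still built from other genes of the same cells. EP-like cells were named by *Btbd17*, *Gadd45a*, *Mfng*, *Hes6*, *Cbfa2t3*, *Dll1*, *Neurod2* and *Amotl2*. Of these, *Btbd17*, *Gadd45a*, *Mfng*, *Hes6* and *Cbfa2t3* were also among the 10 genes most correlated with *Neurog3* (below). The high place of this class is therefore partly set by its markers. EP-like cells numbered 1535 over the 8 libraries. They carried 4486 ± 1707 CPM of *Neurog3* (the share of the gene among all UMIs of the class in a library, 10000 CPM being 1%; mean ± SD, n = 8 libraries), with a lowest value of 2365, a median of 3938 and a highest of 6677. Of all *Neurog3* UMIs, EP-like cells held between 48.5% and 84.0% (median 76.7%), although they made up at most 17.4% of the epithelial cells of a library.

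Each of the other classes lay lower in every library. Ductal-like cells, the bipotent trunk and duct cells marked by *Spp1* and *Sox9*, carried 53.2, 75.3 and 184.5 CPM (lowest, median and highest of 8 libraries). They included 112 cells of a *Fev-Cre* cluster led by the collagen genes *Col3a1*, *Col1a1* and *Col1a2*, and 112 cells of a v2 E14.5 cluster led by hemoglobin genes. Without these clusters the *Fev-Cre* value fell from 75.5 to 48.3 CPM and the v2 E14.5 value was 188 CPM. *Fev*+-like cells, the stage after the progenitor, carried 53.5, 202 and 485 CPM in 6 libraries. Hormone classes were lower still, with medians of 11.7 CPM in alpha-like cells (8 libraries, highest 20), 16.6 CPM in beta-like cells (7 libraries, highest 80.3) and 33.2 CPM in delta-like cells (4 libraries, highest 38.4). Without the highest cell of each library the medians were 5.22 CPM in alpha-like and 10.5 CPM in beta-like cells. In v2 E17.5, 1 beta-like cell of each well held 124 of 155 and 89 of 126 *Neurog3* UMIs. The beta-like value of 80.3 CPM came from v2 E12.5, where the class had 7847 CPM of beta markers, against 83420 to 428600 CPM in the other libraries, and 9589 CPM of alpha markers, and where no class was named *Fev*+-like. The part of these marker levels in the value was not tested. Acinar-like cells, the digestive enzyme lineage, had a median of 15.5 CPM (8 libraries, highest 96.7 in v1 E14.5 batch 2, or 41.1 there without 1 cell with 46 of the 79 UMIs), and mesenchymal cells, which serve as the background, had 4.95 CPM (8 libraries, highest 12). The lowest EP-like value lay above the highest of each of these classes.

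Epsilon-like cells, marked by *Ghrl*, stood out among the hormone classes. They reached 20 cells in 3 libraries, with 929 CPM in v2 E14.5 (60 cells), 1191 CPM in v2 E17.5 (37 cells) and 107 CPM in *Fev-Cre* E14.5 (162 cells). *Neurog3* was detected in 80.0%, 73.0% and 13.6% of these cells. In *Fev-Cre* 1 cell held 88 of the 139 UMIs, and the value without it was 39.5 CPM. The counting interval of the *Fev-Cre* value lay below those of both Swiss Webster values, and strain, sort and clustering cannot be told apart between them. The EP-like marker *Neurod2* was at 60.3, 120 and 0 CPM in these epsilon-like classes, against 2.2, 17 and 18.1 CPM in *Fev*+-like cells. Median *Btbd17* was 223 CPM in epsilon-like and 41.4 CPM in *Fev*+-like cells, and median *Gadd45a* 109 and 134 CPM. These classes may thus hold progenitors or mixed profiles, which was not tested. A mixed class of endocrine clusters that met no name carried 106 to 483 CPM in 5 libraries (median 236.5).

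**Figure D1:**
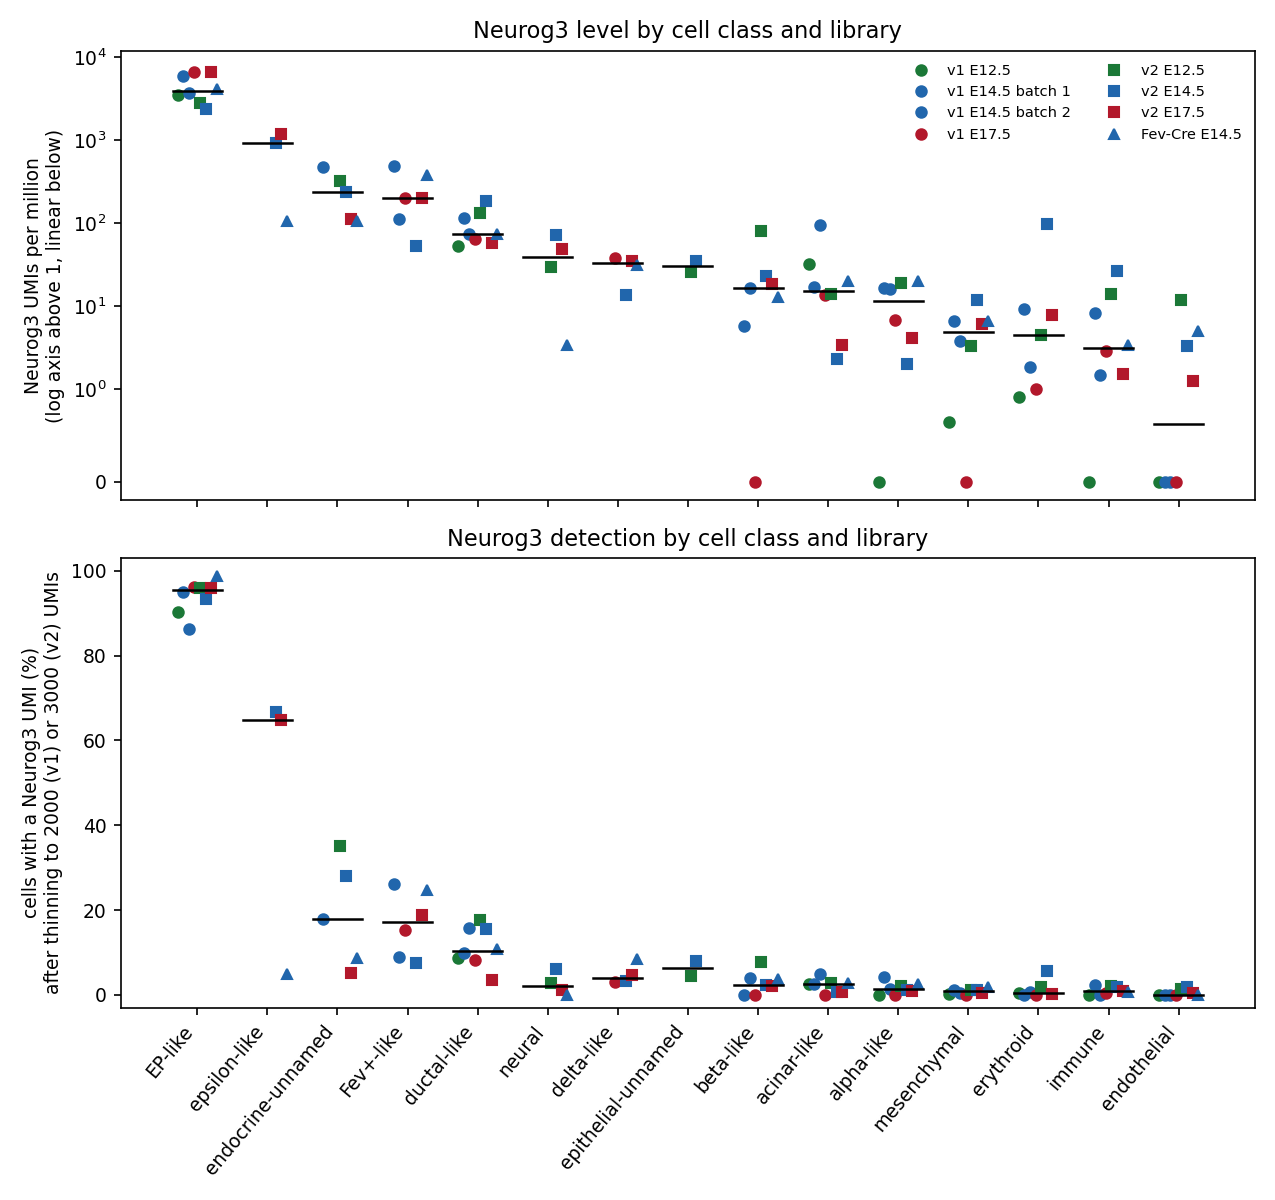
Neurog3 level (upper panel, CPM, log axis above 1 and linear below) and share of cells with a Neurog3 UMI after thinning (lower panel, percent) for each cell class with at least 20 cells in a library. Each point is 1 library, with color for stage and shape for kit or cross, and bars are medians over libraries. Classes named unnamed are clusters that met no marker name. EP-like cells lie at 2365 to 6677 CPM in all 8 libraries, above every other class.

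Within each library the order of the classes was set against counting error (exact Poisson 95% intervals, which cover counting error only). EP-like cells ranked first in 8 of 8 libraries, with an interval apart from that of the next class in all 8. The second place was taken by *Fev*+-like cells in 4 libraries, epsilon-like cells in 2, and ductal-like or unnamed endocrine cells in 1 each. *Fev*+-like cells lay above ductal-like cells in 5 of 6 libraries, with intervals apart in 4, and lay below them with intervals apart in 1, v2 E14.5 (53.5 against 184.5 CPM). Ductal-like cells of v2 E14.5 also carried 47.9 CPM of *Fev* and 52.2 CPM of *Neurod1*. In v2 E12.5 these were 1.42 and 4.86 CPM, in v2 E17.5 1.48 and 12.4 CPM, and in v1 E14.5 batch 2 73.4 and 3.58 CPM. The part of endocrine transcripts in the ductal-like value was not tested. Ductal-like cells lay apart above alpha-like cells in 8 of 8 libraries, above beta-like cells in 7 of 7 and above acinar-like cells in 5 of 8, and apart below each of these in none. Acinar-like cells lay apart above the mesenchymal background in 6 of 8 libraries and apart below it in 2, v2 E14.5 and v2 E17.5. In v2 E14.5, 4 mesenchymal cells held 51 of the 69 *Neurog3* UMIs of the class. All 4 were called doublets by Scrublet. Their median was 22.5 UMIs of EP-like markers, against 0 in mesenchymal cells there without *Neurog3*. The part of these cells in the order was not tested. Beta-like and alpha-like cells had overlapping intervals in 4 of 7 libraries. Alpha-like cells lay apart above the mesenchymal background in 3 of 8 libraries and apart below it in 1, v2 E14.5. Beta-like cells lay apart above it in 4 of 7, v2 E12.5 among them, and apart below it in none. With the highest cell left out of each class these counts were 3 and 1 of 8 for alpha-like and 3 and 0 of 7 for beta-like cells, although which libraries they come from can rest on 1 cell: in v2 E17.5 a single mesenchymal cell held 72 of the 80 UMIs, and without it mesenchymal cells carried 0.611 CPM in place of 6.10 CPM.

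Tests on UMI sums per class and library bore on the same steps (edgeR quasi-likelihood test with library as a block, Benjamini-Hochberg over all genes tested). *Neurog3* was higher in EP-like than in ductal-like cells by 5.53 ± 0.32 log2 (SE, 8 libraries, adjusted p = 1.4e-08), and the difference held in 8 of 8 libraries (3.61 to 6.61 on the log2(CPM + 10) scale). It was higher in EP-like than in *Fev*+-like cells by 4.70 ± 0.24 log2 (6 libraries, adjusted p = 6.95e-10). It was also higher in *Fev*+-like than in alpha-like cells by 4.41 ± 0.21 log2 (6 libraries, adjusted p = 5.29e-11) and than in beta-like cells by 3.20 ± 0.39 log2 (6 libraries, adjusted p = 7.95e-06). Of all genes tested, 58.5%, 42.6%, 24% and 35.1% passed in these comparisons in either direction. Ordered by log2 fold change from the highest, *Neurog3* had rank 15 of 9066, 17 of 7567, 2 of 7716 and 5 of 6865 genes. Comparisons that share a class share its cells, and classes cut from the genes of these cells differ in many genes by construction. The EP-like markers include genes strongly correlated with *Neurog3*, so its ranks and p-values in the comparisons with EP-like cells are partly set by the names. *Pax4*, which helped to name *Fev*+-like cells, was also correlated with *Neurog3* (mean r 0.479, below). The comparisons of *Fev*+-like with alpha-like and beta-like cells are therefore partly set by the names too. The sizes depended on how cells were clustered and doublets removed. In the order above they were 4.77, 3.32, 5.22 and 4.33 log2 with Leiden resolution 2 and 5.89, 3.21, 6.07 and 4.74 log2 with Scrublet doublets removed, each past the test, and without *Fev-Cre* the difference to beta-like cells was 2.56 log2. Without the clusters led by collagen or hemoglobin genes the difference to ductal-like cells was 5.61 log2.

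A change with kit was tested for all 4 class differences and a change with stage for EP-like against ductal-like cells only, and none of these passed. The EP-like against ductal-like difference was 1.42 ± 0.51 log2 larger at E17.5 than at E14.5 (edgeR interaction, adjusted p = 0.237) and its v2 minus v1 difference was −0.75 ± 0.56 log2 (adjusted p = 1). *Fev-Cre* counted as v2 and as E14.5 in these fits, and the other v2 libraries were depleted of CD140a+ cells. Kit cannot be told apart from depletion, strain and sort. Markers of other cells were also present: the 10 acinar markers summed to 208 to 3658 CPM in EP-like cells and 364 to 2743 CPM in ductal-like cells (8 libraries each, 3 to 10 and 7 to 10 of the markers detected), and their part in the differences was not tested.

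Detection was highest in EP-like cells but did not follow the level in every library. In v1 E14.5 batch 2, *Fev*+-like (114 CPM) and acinar-like cells (96.7 CPM) had *Neurog3* in 14.4% and 10.3% of cells. Ductal-like cells there had it in 21.7% at 75.2 CPM, with overlapping intervals of the shares. Between 88.2% and 99.5% of EP-like cells had a *Neurog3* UMI, and after thinning each cell to a fixed depth (2000 UMIs for v1, 3000 for v2) the share was 86.2% to 98.9% (median 95.5%). Thinned shares had medians of 17.2% in *Fev*+-like cells, 10.3% in ductal-like cells, 1.30% in alpha-like cells and 2.22% in beta-like cells. In mesenchymal cells, which should lack the gene, 0% to 3.61% had a UMI without thinning (median depth of a library's mesenchymal cells 2333 to 10540 UMIs, of EP-like cells 2728 to 7496 UMIs) and 0% to 1.74% after it. In alpha-like cells the interval of the thinned share overlapped that of mesenchymal cells in all 8 libraries. In beta-like cells it overlapped in 5 of 7 libraries and lay above in v2 E12.5 (7.78%, 3.18% to 15.4%, against 1.08%, 0.798% to 1.44%), the library whose beta-like class was low in beta markers and high in *Fev*, and v2 E17.5 (2.03%, 1.14% to 3.33%, against 0.347%, 0.0946% to 0.886%).

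Some ductal-like cells carried many molecules, in a class that in v2 E14.5 also held *Fev* and *Neurod1* (above). In v2 E12.5, v2 E14.5 and v2 E17.5, 14.8%, 13.0% and 3.55% of ductal-like cells had at least 2 *Neurog3* UMIs, and single cells reached 39, 56 and 130 UMIs. Unthinned detection in ductal-like cells was 24.7% (22.6% to 26.9%, exact binomial 95% interval) in v2 E12.5, 19.9% (18.3% to 21.6%) in v2 E14.5 and 6.25% (5.33% to 7.27%) in v2 E17.5, at median depths of 7748, 5878 and 12760 UMIs. The E17.5 interval lay below those of both earlier stages despite the greater depth. In v1 the E12.5 share was 14.3%, the E14.5 shares were 14.7% (batch 1) and 21.7% (batch 2) and the E17.5 share was 9.94%, and these intervals all overlapped.

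Over all epithelial cells the share with *Neurog3* was, in v1, 19.5% for E12.5, 17.1% and 26.7% for the pair of E14.5 batches, and 15.6% for E17.5. In v2 it was 21.2%, 18.2% and 9.85% in order of stage, and in the *Fev-Cre* library, where the sort sets the share of each class, 20.4%. EP-like cells made up 5.77%, 6.52% and 4.39% of the v2 epithelial cells in the same order.

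The level within EP-like cells was then compared between stages. At E12.5 it was 3541 CPM in v1 (32 cells) and 2832 CPM in v2 (319 cells). At E14.5 it was 5965 and 3753 CPM in the v1 batches (128 and 93 cells), 2365 CPM in v2 (459 cells) and 4123 CPM in *Fev-Cre* (181 cells). At E17.5 it was 6677 CPM in v1 (34 cells) and 6636 CPM in v2 (289 cells), where the 2 wells gave 6558 and 6702 CPM with overlapping counting intervals. Both E17.5 values lay above every value at E12.5 and E14.5, while E12.5 and E14.5 overlapped. This order rests on how cells were clustered: the v1 E17.5 class fell under 20 cells with Leiden resolution 2, with Scrublet doublets removed and without clusters tied between EP-like and *Fev*+-like, and without these tied clusters v1 E12.5 also fell under 20 cells and v2 E12.5 kept 154 of its 319.

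**Figure D2:**
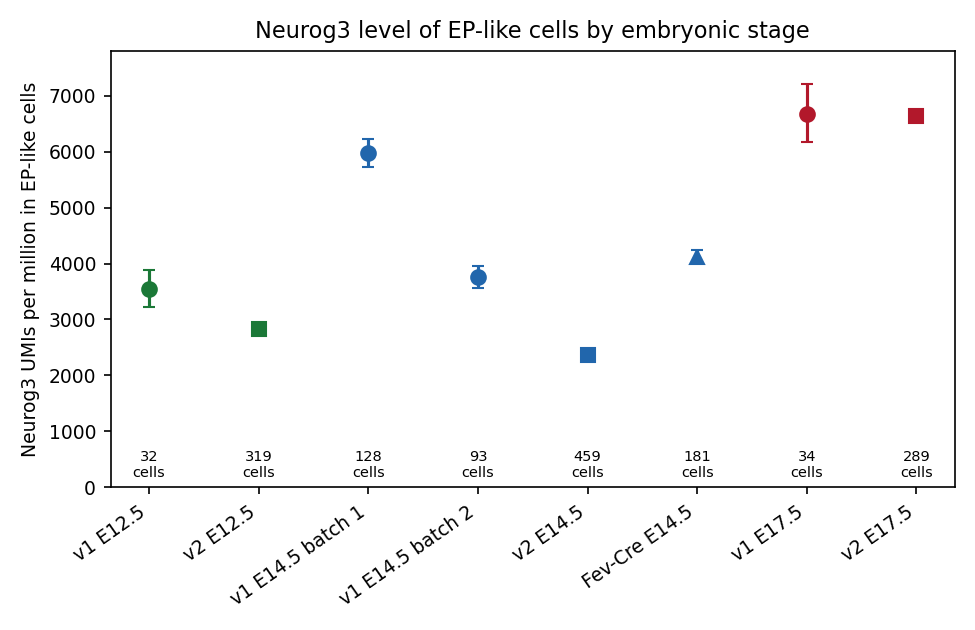
Neurog3 CPM in EP-like cells of each library, ordered by stage (green E12.5, blue E14.5, red E17.5; circles v1, squares v2, triangle Fev-Cre). Bars are exact Poisson 95% intervals of the count, and the number of cells is written below each point. The E17.5 libraries lie at 6677 and 6636 CPM.

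With kit as a covariate and the *Fev-Cre* library left out, no stage difference of *Neurog3* passed across all genes. The E17.5 level was above that at E14.5 by 0.97 ± 0.34 log2 (edgeR quasi-likelihood test, 7 libraries, adjusted p = 0.236) and above that at E12.5 by 1.09 ± 0.37 log2 (adjusted p = 0.157). E14.5 differed from E12.5 by 0.13 ± 0.34 log2 (adjusted p = 0.951), by −0.087 log2 without v1 E14.5 batch 1, and by −0.15 log2 with the v1 batches and v2 as a block. Few genes passed in these fits, with 1.19%, 3.57% and 0.429% of 6058 tested. With no filter on low counts the E17.5 against E12.5 difference passed (1.13 log2, adjusted p = 0.0164). Hemoglobin and other erythroid markers in EP-like cells summed to 489 and 3905 CPM at E12.5, 1390 to 10330 CPM in the Swiss Webster libraries at E14.5 and 2420 and 51960 CPM at E17.5. Beta markers in EP-like cells summed to 228 and 282 CPM at E12.5, 196 to 274 CPM in the Swiss Webster libraries at E14.5 and 8882 and 1438 CPM at E17.5 (v1 and v2). In v1 E17.5, 33 of the 34 EP-like cells had *Neurog3*. All positive epithelial cells there had 250.2 CPM (high *Neurog3*, split below) and 2299 CPM (low) of beta markers. Most of the 8882 CPM thus lay in 1 EP-like cell without *Neurog3*. The part of erythroid or beta markers in the stage values was not tested.

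Among positive epithelial cells the level was broadly spread. Positive cells held a median of 6 *Neurog3* UMIs (median over libraries, lowest 2 in *Fev-Cre*), while single cells reached 44 to 130. The variance of UMIs per positive cell was 7.11 to 36.1 times the mean (median 12.2) and, after thinning to equal depth, 3.43 to 11.6 times (median 5.96). The top 10% of positive cells held 29.7% to 48.4% of all *Neurog3* UMIs (median 34.9%), and 23.3% to 49.3% of positive cells had exactly 1 UMI.

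The spread was narrower within EP-like cells. There the median was 11 to 55 UMIs and the variance 3.26 to 14.53 times the mean (median 7.11). The v2 E17.5 library held the most per cell, with a median of 55 UMIs against 17 in v2 E12.5 and 11 in v2 E14.5, at median depths of 7496, 5262 and 4370 UMIs.

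**Figure D3:**
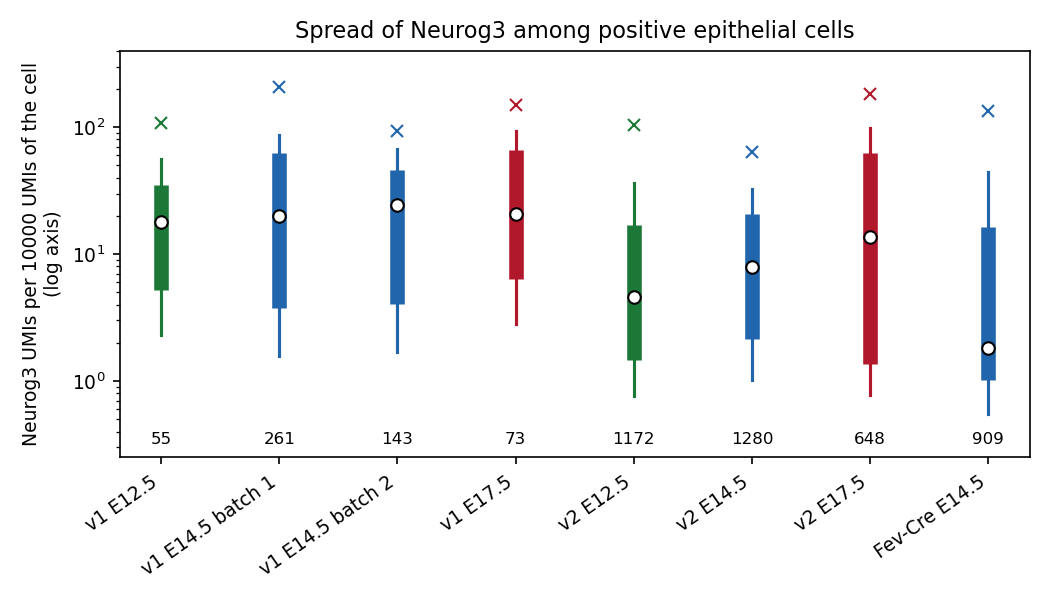
Neurog3 UMIs per 10000 UMIs of the cell among positive epithelial cells of each library (log axis). Thin lines run from the 10th to the 90th percentile, thick bars from the 25th to the 75th, white points are medians and crosses the highest cell; the number of positive cells is written below. Medians run from 1.81 in the Fev-Cre library to 24.3 in v1 E14.5 batch 2, and shallower v1 cells cannot show levels as low as v2 cells can.

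To ask which genes moved with *Neurog3*, positive epithelial cells were split within each library, and within 3 equal groups of total UMIs, into those above the median of *Neurog3* per 10000 UMIs (*Neurog3*-high) and the rest (*Neurog3*-low). High cells carried 15.9 to 63.5 and low cells 0.915 to 10.8 *Neurog3* UMIs per 10000, by construction. The split moved with cell class: EP-like cells were 39.5% to 87.3% of high cells (median 73.1%) and 0.219% to 27.8% of low cells (median 18.2%), and low cells held more ductal-like (median 31.4% against 15.6%), acinar-like (14.8% against 1.70%) and *Fev*+-like cells (14.6% against 1.87%). Unnamed endocrine cells were 25.5% of high and 11.4% of low cells in v2 E12.5, 12.2% and 6.08% in v2 E14.5, and 6.40% and 19.5% in *Fev-Cre*. In v2 E12.5 their median depth was 15300 UMIs, against 5262 UMIs in EP-like cells. Of 9818 genes tested, 2745 (28%) differed, 1322 (13.47%) higher and 1423 (14.49%) lower in high cells (edgeR quasi-likelihood test with library as a block, 8 libraries, adjusted p under 0.05). In 1063 of these the direction was the same in all 8 libraries. With Scrublet doublets removed 2792 genes passed, and positive epithelial cells were 921 in place of 1172 in v2 E12.5 and 982 in place of 1280 in v2 E14.5. Without the block 159 genes passed, and without v2 E12.5, v2 E14.5, v2 E17.5 or *Fev-Cre* in turn 1721, 1610, 1822 and 1673 passed, with 5759 to 5895 genes then tested. The split was also made within EP-like cells alone, without v1 E12.5 and v1 E17.5, which had under 20 cells in each group. There 248 of 6948 genes passed, 118 higher (1.698%) and 130 lower (1.871%), of which 167 were also among the 2745. Of the 24 genes named next, 18 were tested there and 10 passed in the same direction, with *Gadd45a* at 0.66 log2.

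Among genes that passed with the same direction in all 8 libraries, those that rose most were *Krtap17-1*, *Gadd45a*, *Cd40*, *Ppp1r14a*, *Sftpc*, *Slc39a2*, *Neurod2*, *Epb42*, *Crybb1*, *Lrrn2*, *Plk3* and *Nhlh1*, with log2 fold changes from 2.71 to 3.01. *Gadd45a*, a growth arrest and stress response gene, averaged 1440 CPM in high and 224 CPM in low cells (2.98 ± 0.15 log2, adjusted p = 3.12e-10). *Neurod2*, a NeuroD family transcription factor, averaged 213 and 37.3 CPM (2.78 ± 0.29 log2, adjusted p = 1.32e-06), and *Nhlh1*, a neuronal bHLH factor, 33.5 and 4.81 CPM (2.71 ± 0.30 log2, adjusted p = 2.29e-06). All 12 were higher in 8 of 8 libraries, although *Crybb1* differed by only 0.04 on the log2(CPM + 10) scale in v2 E12.5.

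Those of 1 direction in all libraries that fell most were *Ppp1r1a*, *Ly6h*, *Pyy*, *Rbp4*, *Resp18*, *Pnliprp1*, *Fkbp11*, *Pcsk2*, *Cela1*, *Cpn1*, *Phgdh* and *Slc2a2*, with log2 fold changes from −1.69 to −1.10; *Sst*, *Ins2*, *Gcg*, *Ins1* and *Iapp* fell further, by 1.98 to 2.90 log2, without 1 direction in every library. *Pyy*, the peptide YY hormone gene, averaged 1120 CPM in high and 4520 CPM in low cells (−1.43 ± 0.28 log2, adjusted p = 0.000892). *Pcsk2*, a prohormone convertase, averaged 68.2 and 234 CPM (−1.24 ± 0.26 log2, adjusted p = 0.00138), and *Slc2a2*, the glucose transporter GLUT2, 18.3 and 66.8 CPM (−1.10 ± 0.17 log2, adjusted p = 9.84e-05). *Pnliprp1* and *Cela1* are acinar enzyme genes, and *Cela1* gave 0.01 log2 within EP-like cells. Acinar marker sums were lower in high cells in 7 of 8 libraries (250 to 8378 CPM against 255.4 to 21230 CPM; 4 to 10 of 10 markers detected) and beta markers in 8 of 8 (183 to 9049 CPM against 263 to 52260 CPM; 4 to 7 of 7 detected). Alpha markers were lower in 7 of 8 (652.5 to 3978 CPM against 1080 to 10120 CPM) and erythroid markers in 6 of 8, with 2332 CPM in high and 71670 CPM in low cells of v1 E17.5, 1316 and 20300 CPM in v1 E14.5 batch 2, and the reverse, 52380 and 18800 CPM, in v2 E17.5. The part of these markers in the differences was not tested, and without acinar-like cells 2589 genes passed.

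**Figure D4:**
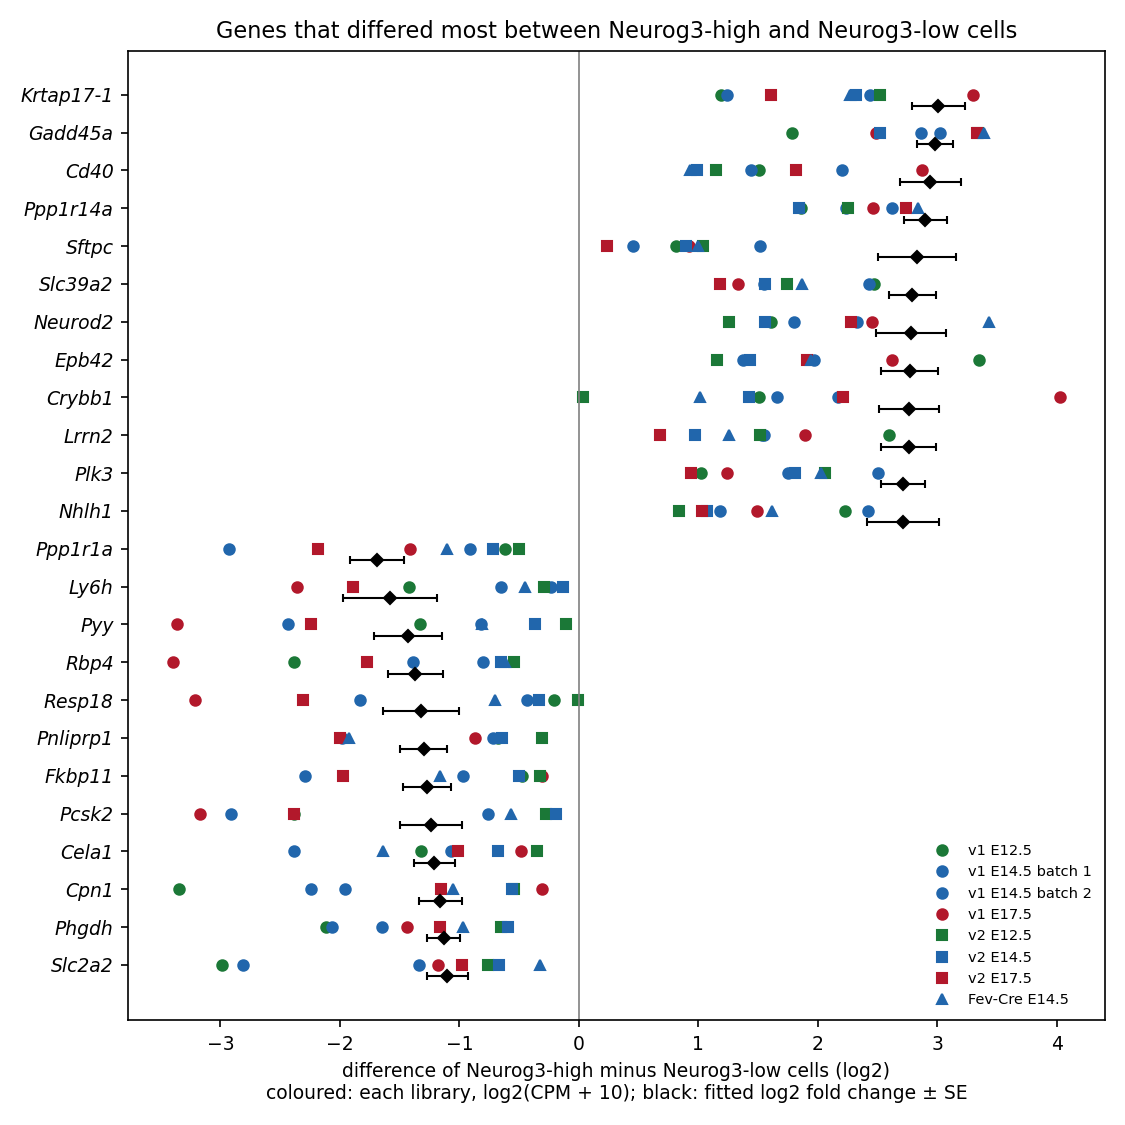
Difference of Neurog3-high minus Neurog3-low cells for the 12 genes that rose most and the 12 that fell most among those with 1 direction in every library. Colored points are the difference in each library on the log2(CPM + 10) scale, and black diamonds the fitted log2 fold change with its standard error over 8 libraries. All 12 upper genes lie above 0 and all 12 lower genes below 0 in every library.

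Genes of the Notch pathway moved in both directions. Of 24 members 16 were tested, 8 rose and 4 fell, with a median of 0.53 log2 against −0.02 over all 9818 genes. Over all these genes 13.47% rose and 14.49% fell. The ligands *Dll1*, *Dll3* and *Dll4* rose by 1.00, 1.58 and 1.85 log2 (adjusted p = 0.00011, 3.25e-07 and 2.7e-07), as did *Mfng*, a fringe glycosyltransferase that modifies Notch receptors (270 against 49.1 CPM, 2.29 ± 0.12 log2), and *Rbpj*, the DNA-binding effector (0.77 log2). *Hes6*, which opposes *Hes1*, averaged 804 and 267 CPM (1.53 ± 0.07 log2, adjusted p = 2.29e-10). The receptors *Notch1* and *Notch2* fell by 0.40 and 0.71 log2, the ligand-like *Dlk1* fell by 0.81 log2, and *Hes1* averaged 277 CPM in high and 552 CPM in low cells (−0.91 ± 0.10 log2, adjusted p = 2.74e-06). Within EP-like cells 3 of 11 tested members rose (*Mfng*, *Rbpj* and *Hes6*) and none passed in the other direction. Of all genes tested there 1.698% rose and 1.871% fell.

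Transcription factors known to act after *Neurog3* mostly rose with it. Of 28 members 25 were tested, 17 rose and 2 fell (median 0.73 log2), where 13.47% of all 9818 genes rose and 14.49% fell. *Pax4*, which favors the beta and delta fates, averaged 311 CPM in high and 79.7 CPM in low cells (2.12 ± 0.11 log2, adjusted p = 3.12e-10). *Insm1* averaged 261 and 74.2 CPM (1.76 ± 0.13 log2), *Nkx2-2* 428 and 174 CPM (1.29 ± 0.08 log2) and *Neurod1* 442 and 209 CPM (0.98 ± 0.12 log2). *Fev* averaged 223 and 262 CPM and did not pass (0.09 ± 0.13 log2, adjusted p = 0.644). *Hhex*, a factor of later delta cells, fell by 0.87 log2.

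Within EP-like cells this group divided. Of 23 tested members 5 rose and 7 fell (118 and 130 of all 6948 genes), with a median of −0.09 log2. *Neurod2*, *Insm1*, *Pax4*, *Cbfa2t3* and *Sox4* rose, by 0.31 to 0.48 log2. Among those that fell, *Isl1*, *Fev* and *Pax6* did so by 2.03, 1.17 and 0.95 log2 (adjusted p = 5.2e-10, 1.48e-05 and 2.24e-05), and *Hhex* and *St18* by 1.29 and 0.77 log2. *St18* had risen in the comparison over all positive cells (0.45 log2, adjusted p = 0.0157) and fell within EP-like cells. Part of the EP-like class came from clusters tied with *Fev*+-like. Without them it kept 67 of 128 cells in v1 E14.5 batch 1, 46 of 93 in batch 2 and 154 of 319 in v2 E12.5. It kept all cells in the other libraries of this fit. The part of the tied clusters in these falls was not tested.

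Trunk and duct genes and the regulators known to act upstream of *Neurog3* were mostly lower in high cells. All 19 trunk and duct genes were tested, 12 fell and 3 rose (median −0.57 log2). *Spp1*, osteopontin, averaged 2330 and 3540 CPM (−0.57 ± 0.12 log2), *Sox9* 123 and 211 CPM (−0.67 ± 0.12 log2) and *Id3*, an inhibitor of bHLH factors, 71.4 and 174 CPM (−1.09 ± 0.17 log2); the keratins *Krt7* and *Krt19* rose by 1.06 and 0.76 log2. Of 17 upstream regulators 15 were tested, 8 fell and 2 rose (median −0.33 log2). *Pdx1* fell by 0.59 log2, and *Foxa2* and *Prox1* rose by 0.48 and 0.43 log2. The members of both lists that rose were near the share of all 9818 genes that rose, 13.47% (14.49% fell). Within EP-like cells 1 of 8 tested upstream regulators fell, *Sox9* (−0.53 log2, adjusted p = 0.0462), and none rose. Of 15 tested trunk and duct genes 4 fell there and 1 rose, *Krt19* (0.645 log2, adjusted p = 0.000126). Of all 6948 genes tested within EP-like cells, 1.698% rose and 1.871% fell.

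Some genes belong to several of these lists (*Hes1* and *Sox9* among them). For the counts that follow, 13.47% of all 9818 genes rose and 14.49% fell. Within EP-like cells 1.698% of 6948 genes rose and 1.871% fell. Cell cycle genes moved in opposite directions by role. Of 29 genes of S phase and G2/M, all tested, 22 fell and none rose (median −0.54 log2), among them *Tyms*, thymidylate synthase (89.9 against 142 CPM, −0.63 ± 0.08 log2, adjusted p = 1.64e-05), and *Birc5*, survivin (86.5 against 144 CPM, −0.73 ± 0.09 log2). Within EP-like cells 3 of 16 tested fell and none rose (median −0.12 log2). Of 12 genes tied to cell cycle exit 11 were tested, 7 rose and 1 fell (median 0.56 log2). *Cdkn1a*, the p21 inhibitor, averaged 1310 CPM in high and 697 CPM in low cells (0.93 ± 0.13 log2, adjusted p = 3.02e-05), but fell within EP-like cells (−0.44 log2, adjusted p = 5.49e-05). Within EP-like cells 1 of 10 tested members of the exit list rose and 2 fell (median 0.03 log2). In thinned cells the share with a UMI of a proliferation marker had a median of 36.3% at 0 *Neurog3* UMIs (8 libraries) and 11.9% at 10 or more (7 libraries).

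Hormone and granule genes were the group lowest in high cells, with 15 of 18 lower and none higher (median −1.10 log2). Over all genes tested 14.49% fell, and within EP-like cells 1.871% did. *Ins2*, *Gcg* and *Sst* fell by 2.61, 2.59 and 2.90 log2, although *Sst* was lower in only 4 and higher in 3 libraries. *Ghrl*, the ghrelin gene of epsilon cells, averaged 2140 CPM in high and 1200 CPM in low cells without passing (0.75 ± 0.33 log2, adjusted p = 0.105). Within EP-like cells 10 of 15 tested members fell, led by the granin *Chgb* (−1.45 log2, adjusted p = 3.53e-07), while *Ins1*, *Ins2* and *Gcg* did not pass there.

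Of 20 adhesion and delamination genes 17 were tested, 3 rose and 6 fell (median −0.13 log2); *Cdh1*, E-cadherin, fell by 0.68 log2, and the neuronal tubulin *Tubb3* rose by 1.83 log2. Of 16 proneural bHLH genes and partners 9 were tested, 3 rose and 3 fell (median 0.18 log2); *Neurog1* and *Neurog2*, the closest relatives of *Neurog3*, did not pass the filter on low counts. Of 13 Hippo genes 11 were tested, 2 rose and 2 fell (median −0.06 log2), with *Amotl2* up by 1.59 log2 and *Cyr61*, a YAP target, down by 1.03 log2. Over all 9818 genes 13.47% rose and 14.49% fell, so the Hippo counts and the adhesion genes that rose were near the share over all genes.

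Correlation across positive cells gave a related picture without the split. Pearson's r of log values was taken within each library after total UMIs were regressed out and averaged over 8 libraries (55 to 1280 cells each); it is a description, since cells of a library share their pool and depth. Over 3648 genes detected in at least 10% of positive cells in every library, mean r ran from −0.388 to 0.701 with a median of 0.00955. The highest were *Gadd45a* (0.701, 0.606 to 0.774 over libraries), *Btbd17* (0.697), *Hes6* (0.590), *Tmsb4x* (0.585), *Igfbpl1* (0.582), *Mfng* (0.547), *Mdk* (0.504), *Tox3* (0.486), *Pax4* (0.479) and *Cbfa2t3* (0.476). The lowest were *Atp1b1* (−0.388), *Adamts1* (−0.349), *Phgdh* (−0.324), *Tuba1b* (−0.315), *Tagln2* (−0.313), *Cldn3* (−0.312), *Cyr61* (−0.309), *Anapc13* (−0.306), *Id2* (−0.301) and *Mif* (−0.299). Within EP-like cells (6 libraries) the r of *Gadd45a* was 0.404 and that of *Btbd17* 0.302, 6 of the 10 highest genes stayed among the 10 highest, and 0 of the 10 lowest stayed among the 10 lowest.

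The genes whose level across classes was most like that of *Neurog3* were taken from 87 sums of class and library, over 13 classes and 8546 genes, by Pearson's r of log2(CPM + 10). They were *Pax4* (0.899), *Gm42637* (0.883), *Gdpd1* (0.869), *Gpx2* (0.868), *Btbd17* (0.867), *Neurod2* (0.857), *Sult2b1* (0.845) and *St6galnac2* (0.844). *Btbd17* and *Neurod2* were among the markers that named EP-like cells and *Pax4* among those that named *Fev*+-like cells, so their place in this order is partly set by the names. Median levels of *Pax4* were 429 CPM in EP-like, 132 CPM in *Fev*+-like and 4.75 CPM in ductal-like cells.

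Detection of other genes changed with the number of *Neurog3* molecules in thinned cells. *Gadd45a* was detected in a median of 6.81% of epithelial cells with 0 *Neurog3* UMIs (8 libraries), 17.9% with 1 and 45.2% with 2 to 4 (6 libraries each), and 92.9% with 10 or more (7 libraries). *Pax4* went from 1.66% at 0 to 58.3% at 10 or more, and *Insm1* from 6.93% to 48.4%. *Hes1* went from 37.2% to 15.3% and *Sox9* from 29.3% to 18.1%. *Fev* was highest at the intermediate counts, with 10.7% at 0, 21.0% at 1, 22.1% at 2 to 4, 17.1% at 5 to 9 and 10.1% at 10 or more, and the ranges of libraries overlapped between all of these.

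Of *Neurog3*-positive epithelial cells, 10.9% to 47.2% also had a *Fev* UMI (median 19.1%, highest in the library sorted for the *Fev* lineage), and of *Fev*-positive cells 10.7% to 35.2% had *Neurog3* (median 22.5%). *Pax4* was detected in 33.3% to 68.2% of cells with both (median 65.8%) and in 18.4% to 40.8% of cells with *Neurog3* but no *Fev* (median 35.2%). The 33.3% comes from 6 cells of v1 E12.5, where cells without *Fev* had 40.8%. The *Pax4* shares were not thinned. Cells with both were deeper in v2 E12.5 (median 10420 against 7727 UMIs) and shallower in v2 E17.5 (7026 against 9064 UMIs).

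The *Fev-Cre* library set *Neurog3* beside the reporter. Its 7888 barcodes found in both alignments, with and without the reporter sequences, gave the same *Neurog3* count in all 7888. An eGFP UMI was detected in 18.2% of 181 EP-like cells (12.9% to 24.6%, exact binomial 95% interval), 91.4% of 526 *Fev*+-like cells (88.7% to 93.7%), 100% of 760 alpha-like cells and 99.75% of 399 beta-like cells. Mesenchymal cells, which are outside the lineage, showed 13.8% at a median of 6204 UMIs against 7035 UMIs in EP-like cells, and acinar-like cells 32.9% at 18400 UMIs. Ductal-like cells showed 31.5%, with 71.4% in the collagen-led cluster of 112 cells and 24.4% in the other 635. After thinning to 3000 UMIs the shares were 11.6% in EP-like (7.33% to 17.2%), 6.46% in ductal-like cells without that cluster (4.67% to 8.66%), 7.41% in acinar-like (5.82% to 9.27%) and 6.20% in mesenchymal cells (5.35% to 7.13%). The EP-like interval overlapped those of ductal-like and acinar-like cells and lay just above that of mesenchymal cells. With 2 eGFP UMIs required, the shares were 6.08% in EP-like, 1.23% in mesenchymal, 12.3% in ductal-like (4.57% without the collagen-led cluster) and 88.8% in *Fev*+-like cells.

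Over all epithelial cells of this library, eGFP detection was 72.1% at 0 *Neurog3* UMIs (3540 cells), 68.5% at 1 (448 cells), 67.3% at 2 to 4 (153 cells), 60.7% at 5 to 9 (56 cells) and 27.8% at 10 or more (252 cells; 22.3% to 33.8%). The interval of the last group lay below all the others. Among *Neurog3*-positive cells, 81.8% of 429 cells with *Fev* and 34.0% of 480 cells without *Fev* had eGFP. Within *Fev*+-like cells, 80.7% of the 181 cells with *Neurog3* (74.2% to 86.2%) and 97.1% of the 345 cells without it (94.7% to 98.6%) had eGFP. This is 1 library, and the intervals cover counting error only. Shares over all epithelial cells also depend on the proportion in which the sorted GFP+ and TdTomato+ cells were combined.

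**Figure D5:**
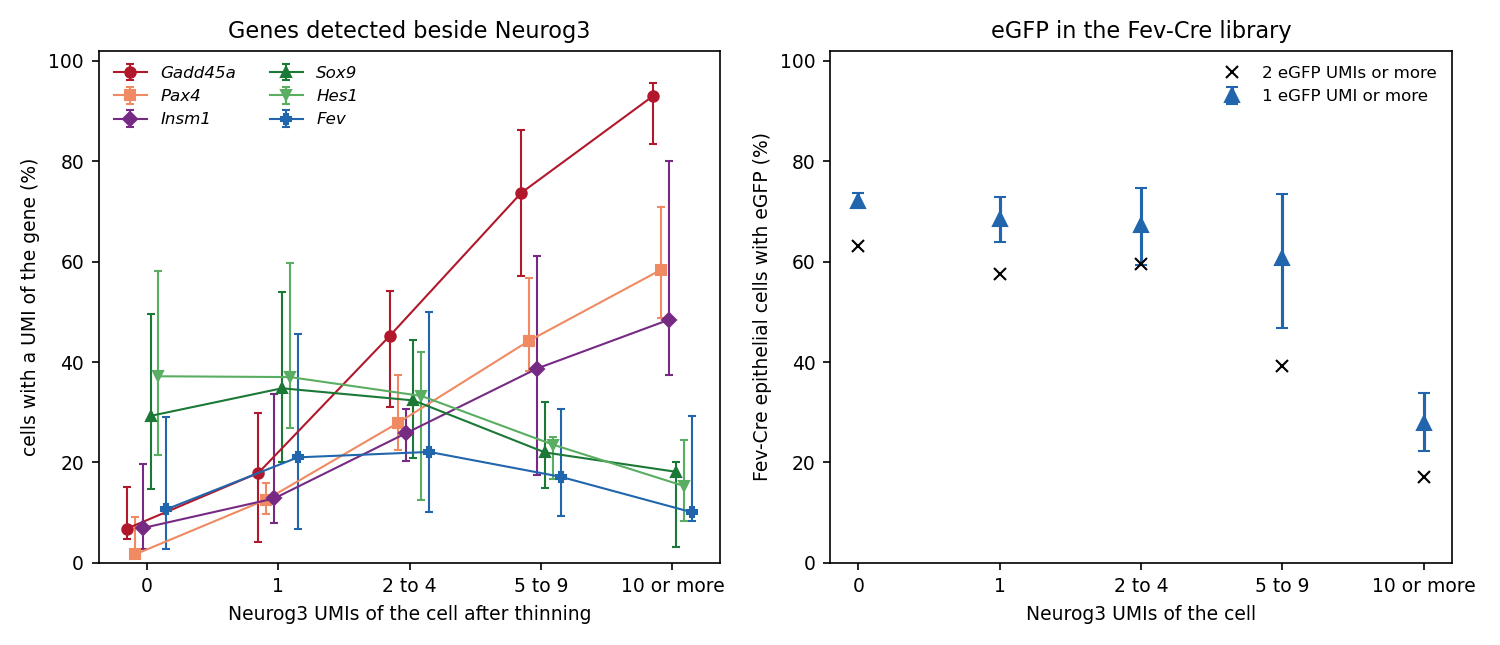
Left, share of epithelial cells with a UMI of 6 genes (percent) by the number of Neurog3 UMIs of the cell after thinning; points are medians and bars the lowest and highest of 6 to 8 libraries. Right, share of Fev-Cre epithelial cells with eGFP by Neurog3 UMIs without thinning, with exact binomial 95% intervals for 1 eGFP UMI and crosses for 2; Gadd45a runs from 6.81% to 92.9% and eGFP from 72.1% to 27.8%.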

How the data were processed

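Live cells of fetal mouse pancreas were captured with the 10x system. The authors aligned reads to mm10 and deposited UMI counts per gene and barcode (Cell Ranger 1.1 for v1 and 2.1 for v2, per the submitters' processing notes), and these raw counts were used as deposited. Total UMIs per matrix ran from 15671934 to 127151679, and this depth limits detection: exact Poisson and Clopper-Pearson 95% intervals cover counting error only. Barcodes with at least 200 genes were kept. The 2 E17.5 v2 wells were summed, and the alignment without reporter sequences served only to check the *Neurog3* count. Libraries shared 0 to 155 barcodes in each pair (at most 1.79% of the smaller), and the wells shared 74.

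Cells were clustered with Leiden (leidenalg 0.10.2, resolution 1), v1 libraries together and each v2 library alone. *Neurog3* was held out, and hemoglobin genes were held out of the variable genes. Clusters were named from marker lists, a tie between EP-like and *Fev*+-like going to the higher score, so the classes are rebuilt and need not match those of the authors. Cells carrying markers of 2 of the epithelial, mesenchymal, endothelial and immune compartments were removed as doublets (0.325% to 7.17% of cells), with Scrublet calls (scanpy 1.11.5) as an alternative. Classes with at least 20 cells in a library were compared.

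UMIs were summed by class and library and tested with edgeR 4.0.16 (quasi-likelihood, TMM, library as a block, Benjamini-Hochberg over all genes, adjusted p under 0.05) in R 4.3.3, and with DESeq2 1.42.0 as an alternative. Tests were checked on simulated counts with 200 genes changed 3-fold, of which 100% were recovered for the class pairs and the high against low comparison and 75% to 89.5% for stages. Unchanged genes were also called, 27 in the high against low comparison, 8 to 19 in the class pairs and 6 to 17 in the stages. The changed genes were drawn from those above the median level, and all libraries shared a mean profile. The block pairs classes or cell groups of the same library, and for stages, as an alternative, the v1 libraries that the labels put in batch 2. Named genes were the 12 highest and 12 lowest by log2 fold change among genes that passed with 1 direction in all libraries, the 10 highest and 10 lowest mean correlations among genes of 1 sign in all libraries, the 8 nearest class patterns, and members of the gene lists. The list members *Ghrl*, *Neurog1* and *Neurog2*, given although they did not pass a test or a filter, were named after their values were seen. The gene and the lists were chosen with earlier results of these data known. Promoter windows came from RefSeq (GRCm38.p6), and for 19 of 22 windows of the named genes the bases after the start were found in a GENCODE transcript of the gene. Results for some members of the gene lists are not reported here.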

Additional observations from a re-analysis of the deposited data

Results flagged for a closer look

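In 7 sums of cells outside the epithelium, which entered none of the tests, the counting interval of *Neurog3* lay wholly above that of mesenchymal cells of the same library. In v2 E12.5 neural cells carried 29.88 CPM, immune cells 14.3 CPM and endothelial cells 11.92 CPM, against 3.31 CPM in mesenchymal cells. In v2 E14.5 the values were 71.82 CPM in neural, 98.71 CPM in erythroid and 26.85 CPM in immune cells, against 12 CPM, and in v2 E17.5 neural cells carried 49.15 CPM against 6.10 CPM. Few cells held these molecules, and 4 mesenchymal cells held 51 of the 69 UMIs of that class in v2 E14.5. In v2 E17.5, 64 of the 68 *Neurog3* UMIs of neural cells lay in 1 cell, and 72 of the 80 UMIs of mesenchymal cells lay in 1 cell; without these cells the values were 2.94 and 0.611 CPM, with overlapping intervals. Over the 3 Swiss Webster v2 libraries, the 21 neural cells with at least 5 *Neurog3* UMIs had a median of 19 UMIs of epithelial markers, against 0 in the 1038 neural cells without *Neurog3*, and Scrublet called 85.7% of the former and 18.3% of the latter as doublets. The 15 such erythroid cells had a median of 27 epithelial marker UMIs (Scrublet 26.7%, against 4.60%), and the 7 such immune cells 15 (71.4%, against 6.49%).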

How the results depend on the processing

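*Neurog3* kept its direction and passed the test in the 4 class comparisons under every alternative run, although clustering and doublet removal moved its size: EP-like against *Fev*+-like cells gave 3.32 log2 with Leiden resolution 2 and 3.21 with Scrublet doublets removed, and *Fev*+-like against alpha-like cells 5.22 and 6.07. Without clusters led by markers of another class, chosen after seeing the data as was leaving out the highest cell of each class, EP-like against ductal-like cells gave 5.61. With no replicate block the differences were 5.48, 4.51, 4.24 and 3.31 log2 for EP-like against ductal-like, EP-like against *Fev*+-like, *Fev*+-like against alpha-like and *Fev*+-like against beta-like cells. Without the replicate block the high against low comparison called 159 genes, 148 higher and 11 lower, and 11 of the 24 named genes still passed. With v1 batch 1, v1 batch 2 and v2 as a replicate block, chosen after seeing the data, the stage differences were −0.15, 1.23 and 1.08 log2 for E14.5 against E12.5, E17.5 against E14.5 and E17.5 against E12.5, and none passed (adjusted p = 0.916, 0.105 and 0.0988, edgeR). Among EP-like cells alone 248 genes were called, 118 higher and 130 lower, 10 of the 18 named genes tested passed in the same direction, 7 no longer passed, and *Cela1* gave 0.012 log2. Leaving out 1 library at a time gave 1610 to 2808 genes, 739 to 1391 higher and 871 to 1417 lower (1822, with 888 lower, without v2 E17.5), with fewer genes tested without a v2 library.

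E14.5 against E12.5 turned to −0.087 without v1 E14.5 batch 1, to −0.011 with Scrublet calls removed and to −0.50 without clusters tied between EP-like and *Fev*+-like, an alternative chosen after seeing the data, and the cause was not tested. Leaving out 1 library gave −0.087 to 0.47, 0.54 to 1.34 for E17.5 against E14.5 and 0.65 to 1.48 for E17.5 against E12.5. With no filter the last was 1.13 and passed. In EP-like cells the median was 18 UMIs per positive cell, the top 10% held 22.0% of UMIs and 388 genes correlated with 1 sign in every library, the last also chosen after seeing the data, as was the comparison without acinar-like cells. With epithelial classes only, 4 of the 8 nearest class patterns stayed. With 2 UMIs required or cells thinned, eGFP was found in 6.08% and 11.6% of EP-like cells and in 17.1% and 20.6% of cells with 10 or more *Neurog3* UMIs. Low depth in v1 limits the detection of low levels.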
